A study of Mus musculus with 244 samples.

Results

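Cell cycle and DNA replication genes were described in single macrophages of the mouse aortic arch, across atherosclerosis regression and its baseline. The 38 genes were taken by symbol from a table of 24475 genes, and all 38 were found. They comprise 14 genes of S phase (Pcna, Mcm2, Mcm3, Mcm4, Mcm5, Mcm6, Mcm7, Tyms, Rrm1, Rrm2, Ccne1, Tk1, Gmnn and Uhrf1), 22 genes of G2 and mitosis, and Stmn1 and Ccnd1, which were counted in neither phase. Regression cells came from atherosclerotic arches of Apoe-/- donors that had been grafted into wild-type recipients on chow and were collected 3 days after transplantation. Baseline cells came from the arches of Apoe-/- mice after 16 weeks of high-fat diet, so the arch tissue of both groups was Apoe-/- and had been through that diet. The recipients carry Apoe, and Apoe was at RPKM 10 or more in 96.5% of regression cells and in 3.20% of baseline cells. The labels used here give no strain, sex, age or number of mice.

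Sorted CD45+ CD11b+ F4/80+ cells were captured singly, and each library is 1 cell measured as RPKM, in which reads are divided by the length of the transcript and the size of the library. After near copies were averaged and cells with fewer than 1000 genes were left out, 113 regression cells and 125 baseline cells remained. No animal is named, so each group counts as 1 sample: there is no test between groups, SDs are over cells, and 95% intervals (exact, Clopper-Pearson) cover counting error only. The cell numbers fall into 5 stretches, each of 1 condition: cells 1 to 20, 93 to 111 and 168 to 244 are regression cells, and cells 21 to 92 and 112 to 167 are baseline cells. The sources used here do not say whether a stretch was captured in 1 run. Regression cells had a median of 2360 genes at RPKM 1 or more (1142 to 4119), against 2491 genes (1095 to 4378) in baseline cells. Estimated depth had a median of 0.87 M reads in 63 regression libraries and 1.02 M reads in 76 baseline libraries. At the median of 0.96 M reads over those libraries, RPKM 10 stands for 10 reads on the shortest member transcript, that of Stmn1, and for 107 reads on the longest, that of Cenpf.

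A dividing cell copies its DNA in S phase and separates the copies in mitosis. D-type cyclins with their kinases move a cell out of G1. E2F factors then switch on the genes of DNA synthesis, such as the MCM helicase that opens DNA and the enzymes that make nucleotides, and a later wave of genes serves chromosome condensation, the spindle and the cyclin B kinase. In atherosclerotic plaques, macrophages are known both to arise from blood monocytes and to divide in place.

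The promoters of the S-phase and mitotic members differ in short sequence elements, which are shown because the genes are grouped by phase in what follows. RefSeq promoter windows (GRCm38.p6) were at hand for 31 of 38 members and not for Mcm4, Stmn1, Ccna2, Ccnd1, Aurkb, Tpx2 and Gmnn. Each window spans 250 bases before to 50 bases after a start, and 3 elements were searched on both strands, where they may overlap each other. TTTGAA, the core of the cell cycle homology region known from mitotic promoters, was in a window of 14 of 19 G2/M members and of 1 of 12 S-phase members, against 17.9% of all 32851 windows. CCAAT, the box bound by NF-Y, was in 17 of 19 G2/M members and in 9 of 12 S-phase members, against 37.4% of all windows. The E2F-like words TTGGCGC or TTCGCGC were in 3 of 19 G2/M members and in 5 of 12 S-phase members, against 3.89% of all windows. A member can have more than 1 window, so its chance of a match is not that of a single window, and a match is a description of letters only. The 200 bases before the start are printed for 5 genes, on the coding strand, with matches to any of these elements in capitals. Mcm5 and Mcm6, subunits of the replicative helicase, are examples of S-phase members. The mitotic cyclin Ccnb2, topoisomerase Top2a and the proliferation marker Mki67 are examples of G2/M members. All 5 hold the element that was more frequent in their phase, which is not so for every member. In the same 200 bases, the S-phase members Pcna and Rrm1 hold no E2F-like word, and the G2/M members Birc5 and Plk1 hold no TTTGAA.
Mcm5 (chr8:75109309-75109508, plus strand): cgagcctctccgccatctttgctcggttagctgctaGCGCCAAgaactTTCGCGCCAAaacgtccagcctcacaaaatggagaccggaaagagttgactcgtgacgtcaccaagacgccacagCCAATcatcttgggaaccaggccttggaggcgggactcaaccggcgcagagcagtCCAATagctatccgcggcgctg
Mcm6 (chr1:128359706-128359905, minus strand): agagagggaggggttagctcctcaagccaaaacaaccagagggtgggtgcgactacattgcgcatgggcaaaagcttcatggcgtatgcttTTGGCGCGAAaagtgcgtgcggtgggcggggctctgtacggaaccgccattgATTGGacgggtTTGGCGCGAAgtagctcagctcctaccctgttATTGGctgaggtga
Ccnb2 (chr9:70421555-70421754, minus strand): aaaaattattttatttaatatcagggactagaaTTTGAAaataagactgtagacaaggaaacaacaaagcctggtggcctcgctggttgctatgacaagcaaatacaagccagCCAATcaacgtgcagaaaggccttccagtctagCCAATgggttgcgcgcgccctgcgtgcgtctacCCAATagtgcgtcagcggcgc
Top2a (chr11:99024190-99024389, minus strand): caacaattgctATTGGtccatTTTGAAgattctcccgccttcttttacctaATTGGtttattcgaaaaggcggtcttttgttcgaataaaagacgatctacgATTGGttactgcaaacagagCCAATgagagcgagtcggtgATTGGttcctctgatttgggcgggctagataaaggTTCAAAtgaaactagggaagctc
Mki67 (chr7:135716380-135716579, minus strand): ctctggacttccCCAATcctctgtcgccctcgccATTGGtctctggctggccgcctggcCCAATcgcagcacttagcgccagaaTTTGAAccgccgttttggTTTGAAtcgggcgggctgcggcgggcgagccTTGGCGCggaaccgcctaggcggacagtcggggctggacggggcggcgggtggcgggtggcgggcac
The printed stretches of Mcm5 and Mcm6 hold E2F-like words and CCAAT but no TTTGAA, those of Ccnb2 and Top2a hold TTTGAA and CCAAT but no E2F-like word, and that of Mki67 holds all 3 elements.

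Cells that listed several cell cycle genes together made up a smaller share in regression than at baseline. At least 4 of the 38 members were at RPKM 10 or more in 19 of 113 regression cells (16.8%, 95% interval 10.4 to 25.0%) and in 37 of 125 baseline cells (29.6%, 21.8 to 38.4%). Members per cell had a median of 1 and a highest value of 21 in regression cells, against a median of 2 and a highest value of 24 in baseline cells. No member at all reached RPKM 10 in 21 regression cells (18.6%) and in 10 baseline cells (8.00%). Just inside the threshold, exactly 4 members were listed in 7 regression cells and 10 baseline cells; just outside it, exactly 3 were listed in 14 regression cells and 23 baseline cells.

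**Figure D1:**
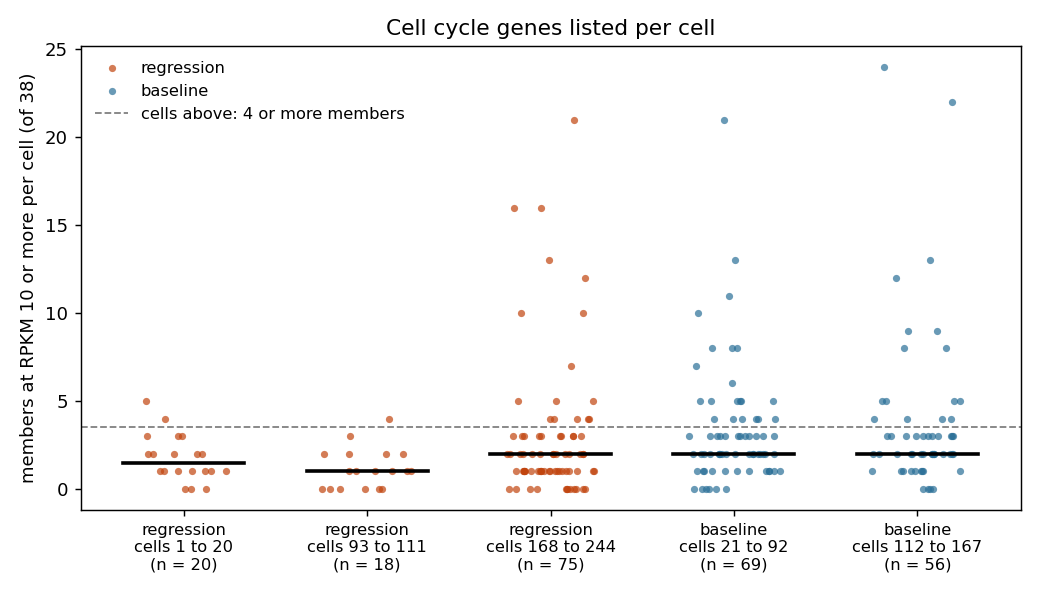
Number of the 38 members at RPKM 10 or more in each cell (vertical axis) for the 5 stretches of cell numbers, regression on the left and baseline on the right; points are cells, black bars are medians and the dashed line separates cells with 4 or more members. The cells with 10 or more members lie in regression cells 168 to 244 and in both baseline stretches.

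The regression stretches were not alike. The share of cells with at least 4 members was 2 of 20 (10.0%) in cells 1 to 20, 1 of 18 (5.56%) in cells 93 to 111 and 16 of 75 (21.3%) in cells 168 to 244. In the baseline stretches it was 21 of 69 (30.4%) in cells 21 to 92 and 16 of 56 (28.6%) in cells 112 to 167. Every regression stretch was therefore below both baseline stretches, while without cells 168 to 244 the regression share was 7.89%. The intervals overlapped, at 1.23 to 31.7%, 0.141 to 27.3% and 12.7 to 32.3% in regression. At baseline they were 19.9 to 42.7% and 17.3 to 42.2%. Median genes at RPKM 1 or more in the same order were 2669, 1892 and 2399 in regression, and 2457 and 2515 at baseline. The part of detection in the stretch shares was not tested.

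The difference between the groups depended on how many members a cell had to list. At least 6 members were at RPKM 10 in 8 regression cells (7.08%) and 17 baseline cells (13.6%), and at least 8 members in 7 regression cells (6.19%) and 15 baseline cells (12.0%). With at least 10 members the shares were close, 7 regression cells (6.19%, 2.53 to 12.3%) and 8 baseline cells (6.40%, 2.80 to 12.2%). All 7 of these regression cells were in cells 168 to 244, and the baseline cells were divided 4 and 4 between both baseline stretches.

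Cells with more genes detected listed more members. The share with at least 4 members was lower in regression at each level of detection, with intervals that overlapped. Among cells with fewer than 2000 genes, at least 4 members were listed in 2 of 32 regression cells (6.25%) and 4 of 28 baseline cells (14.3%). With 2000 to under 3000 genes the counts were 6 of 50 regression cells (12.0%) and 15 of 63 baseline cells (23.8%), and with 3000 or more they were 11 of 31 regression cells (35.5%) and 18 of 34 baseline cells (52.9%). From the lowest level up, the intervals were 0.766 to 20.8%, 4.53 to 24.3% and 19.2 to 54.6% in regression. At baseline they were 4.03 to 32.7%, 14.0 to 36.2% and 35.1 to 70.2%. With 3000 or more genes, at least 10 members were listed in 7 of 31 regression cells and 7 of 34 baseline cells. Regression cells with at least 4 members had a median of 3323 genes, against 2292 in the other regression cells, and the baseline medians were 2991 and 2380 genes. The number of members correlated with the number of genes at Pearson's r of 0.51 over 113 regression cells and 0.55 over 125 baseline cells, where both counts come from the same library. The part of detection in the group difference was not tested.

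**Figure D2:**
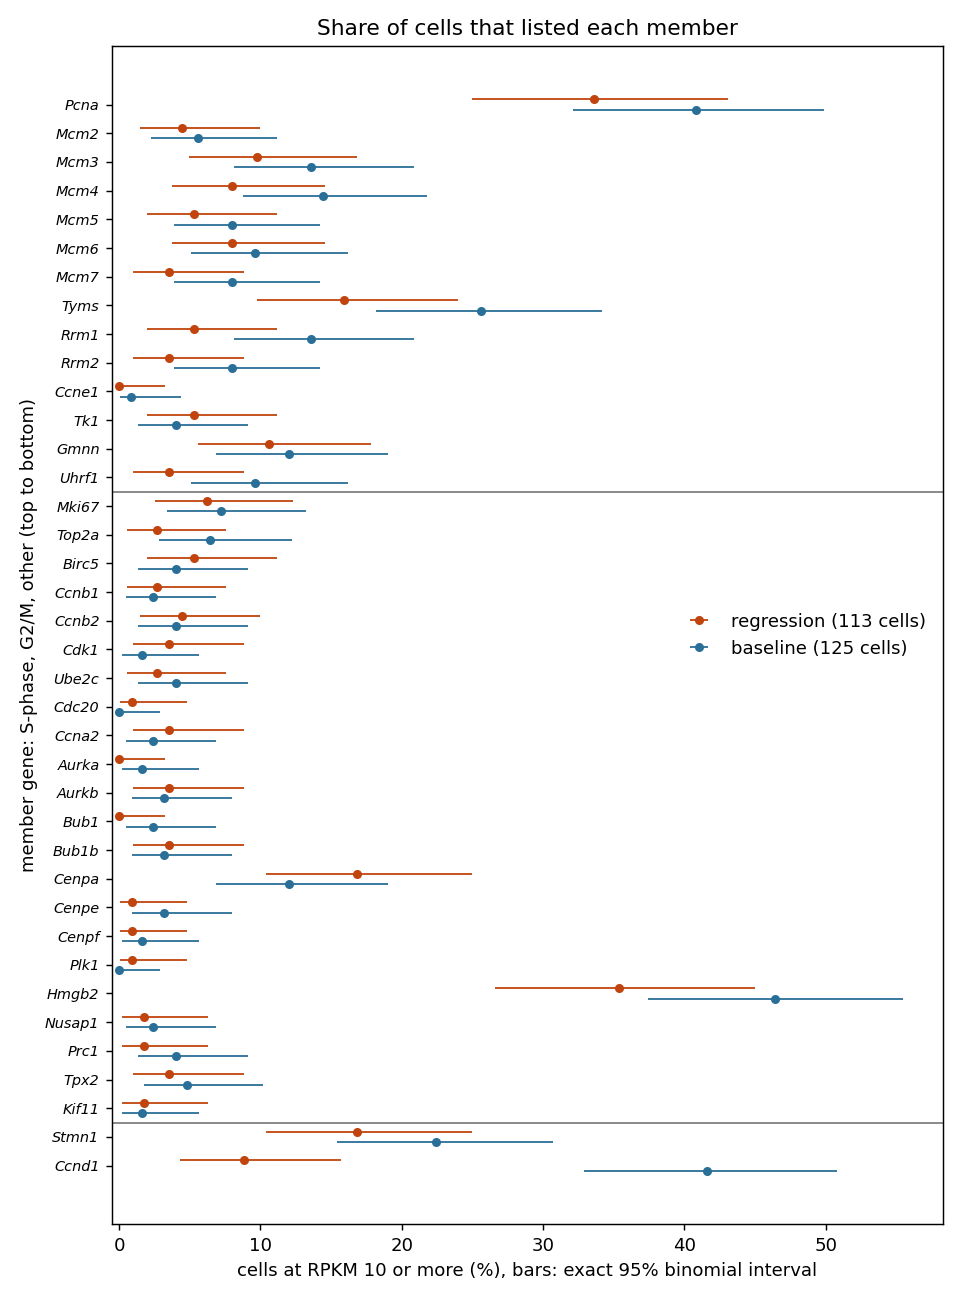
Share of cells at RPKM 10 or more for each member (percent of cells, regression beside baseline), ordered by phase. The widest gap is that of Ccnd1, at 8.85% of regression cells and 41.6% of baseline cells, and 13 of 14 S-phase members are lower in regression.

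By the shares of each list, most cells with at least 4 members were S-leaning in both groups. A cell was S-leaning where a larger share of the 14 S-phase members than of the 22 G2/M members was at RPKM 10 or more. The opposite case was called G2/M-leaning. The S-phase list is shorter, so a cell with equal counts, such as baseline cell 148 (5 and 5), was S-leaning. So were baseline cell 144, with 10 S-phase and 12 G2/M members, and regression cell 210, with 4 and 5. Pcna, on the S-phase list, was also at RPKM 10 in many cells with few other members, and phase itself was not measured. S-leaning cells were 13 of 19 in regression (68.4%, 43.4 to 87.4%) and 25 of 37 at baseline (67.6%, 50.2 to 82.0%), and the remaining 6 regression cells (31.6%) and 12 baseline cells (32.4%) were G2/M-leaning. By stretch, S-leaning cells were 1 of 2, 1 of 1 and 11 of 16 in regression cells 1 to 20, 93 to 111 and 168 to 244, against 14 of 21 and 11 of 16 in baseline cells 21 to 92 and 112 to 167. The shares stayed close at RPKM 1, at 76.7% in regression and 81.2% at baseline. In cells with at least 2000 genes they were 70.6% in regression and 69.7% at baseline. Without Ccnd1 they were 76.5% in regression and 74.2% at baseline. Under other limits the shares parted. At RPKM 30, S-leaning cells were 5 of 9 in regression (55.6%) and 18 of 23 at baseline (78.3%). With at least 6 members they were 4 of 8 in regression (50.0%) and 13 of 17 at baseline (76.5%). In cells with at least 3000 genes they were 7 of 11 in regression (63.6%) and 16 of 18 at baseline (88.9%). The intervals are wide enough that sizeable differences in phase would not be detectable with these numbers of cells.

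Among the cells with at least 10 members, G2/M-leaning cells were 4 of 7 in regression and 1 of 8 at baseline. S-leaning cells were 3 of 7 in regression (42.9%, 9.90 to 81.6%) and 7 of 8 at baseline (87.5%, 47.3 to 99.7%), intervals that overlap. At least 5 S-phase members were listed in 4 regression cells and 13 baseline cells, at least 5 G2/M members in 5 regression cells and 7 baseline cells, and at least 5 of each in 1 regression cell and 4 baseline cells. Over all cells, the number of S-phase members correlated with that of G2/M members at r of 0.19 in 113 regression cells and 0.47 in 125 baseline cells, within libraries that differ in the number of genes detected.

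**Figure D3:**
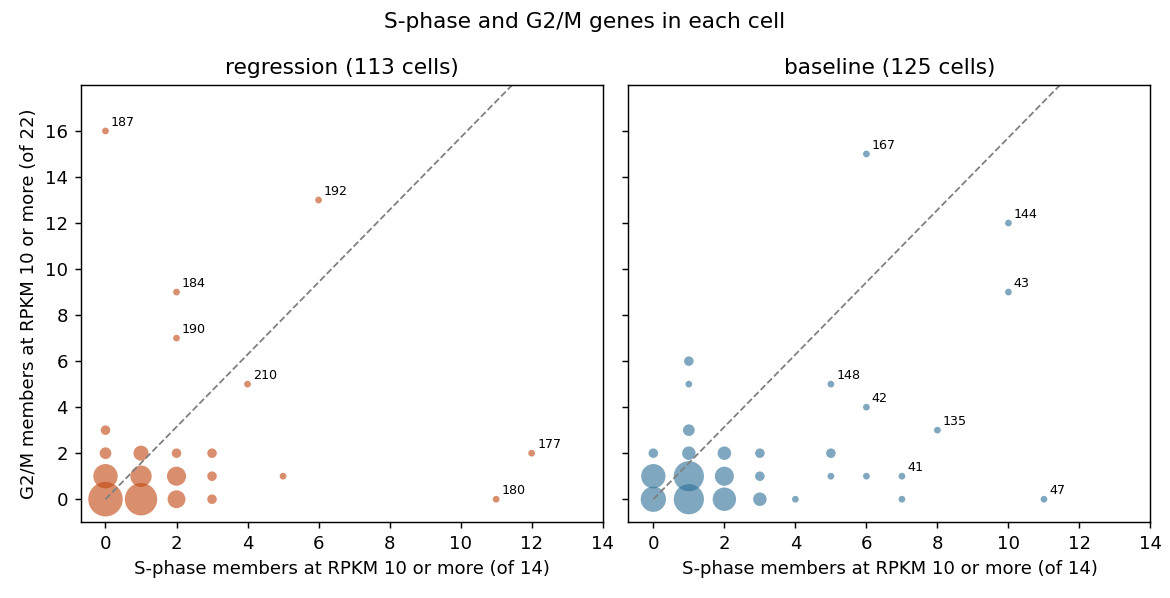
Number of S-phase members (horizontal axis, of 14) against number of G2/M members (vertical axis, of 22) at RPKM 10 or more in each cell, regression left and baseline right; dot area grows with the number of cells at a position, the dashed line marks equal shares, and the cells with 10 or more members carry their cell number. Regression cells 187 and 180 lie on the axes, with 16 G2/M and 11 S-phase members and none of the other kind.

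Single cells showed how separate the phases could be at the limit of RPKM 10. Regression cell 187 listed 16 G2/M members and no S-phase member: Ube2c, the ubiquitin-conjugating enzyme of the anaphase-promoting complex, was at 1074 RPKM, the survivin gene Birc5 at 810 RPKM and cyclin B1, Ccnb1, at 226 RPKM. It was the only cell in either group in which Cdc20, the activator of that complex, passed RPKM 10, at 17.8 RPKM. Regression cells 177 and 180 were the reverse, with 12 and 11 S-phase members and 2 and 0 G2/M members, and baseline cell 47 listed 11 S-phase members and 0 G2/M members. Regression cell 192, with 6 S-phase and 13 G2/M members, and baseline cells 144 (10 and 12), 167 (6 and 15) and 43 (10 and 9) listed both kinds. Below RPKM 10 the separation was less complete. Cell 187 had Pcna at 8.38 RPKM, cell 180 had Hmgb2 at 9.0 RPKM and cell 47 had Top2a at 5.16 RPKM. Doublets were not called, and whether any of these libraries holds more than 1 cell was not tested.

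**Figure D4:**
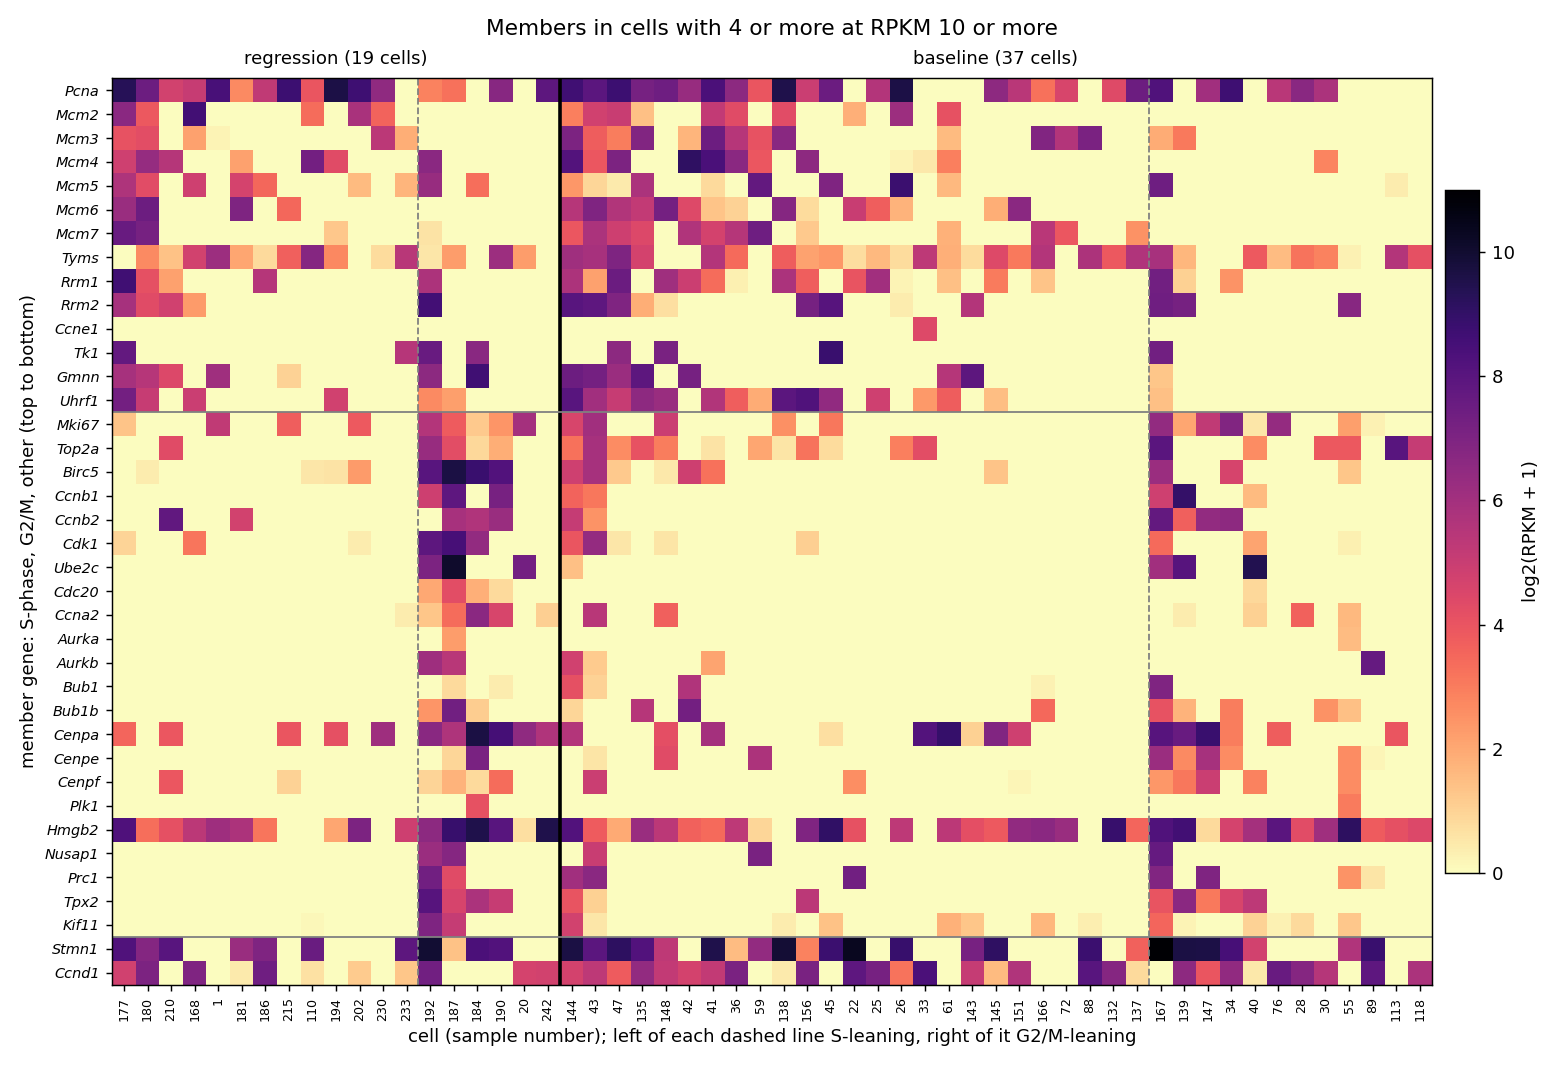
Level of the members (rows, log2(RPKM + 1)) in the 19 regression cells (left) and 37 baseline cells (right) with at least 4 members, cells ordered within each group. Blocks of G2/M members stand in few cells, such as regression cells 187 and 192 and baseline cells 167 and 144.

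On the log2(RPKM + 1) scale, the S-phase members were lower in regression with 1 exception. On this scale, where a difference is the regression mean minus the baseline mean and low genes are understated, 13 of 14 were lower and the median difference was -0.28. Between stretches the direction was less even. In all 6 pairings of a regression with a baseline stretch, Mcm3, Tyms, Rrm1, Rrm2 and Uhrf1 were lower in regression. Pcna, Mcm5, Mcm6 and Mcm7 were lower in 5 pairings, Mcm2, Mcm4 and Gmnn in 4, Ccne1 in 3 and Tk1 in 1. Over all 38 members, 28 were lower and the median difference was -0.12; 34.7% of all 24475 genes were lower, a table in which 8904 genes had no difference. Of the 28 members that passed a filter of RPKM 1 or more in 5% of the cells of a group, 22 were lower, against 52.8% of the 9299 genes that passed. The median difference was -0.18 for the members that passed and -0.023 for all genes that passed, and the members' median was -0.29 without cells 168 to 244 and -0.12 without cells 1 to 20. In cells with at least 3000 genes, a limit chosen after seeing the data, it was 0.0017. There 17 of 35 members were lower, against 49.1% of all genes that passed. Members that pass only through the group in which they are listed must differ, so these counts describe the list and were not tested. Of members that passed, 4 were lower by at least 0.5 (Ccnd1, Rrm1, Stmn1 and Mcm4), against 10.7% of all genes that passed, and 0 were higher by at least 0.5, against 8.74%. With a pseudocount of 10, only Ccnd1 was still lower by 0.5 (-0.96), while Mcm4 was at -0.35, Rrm1 at -0.24 and Stmn1 at -0.38. As the log2 ratio of mean RPKM, 18 of 28 members were lower, against 49.2% of all genes that passed. No test was run, so there is no p-value beside this count of 0.

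Counted as the share of cells at RPKM 10, nearly all S-phase members and an even number of G2/M members were lower in regression. The share was lower in regression for 26 of 38 members, of which 13 of 14 S-phase and 11 of 22 G2/M members; among members that passed the filter it was 21 of 28, against 51.4% of all genes that passed. The median share over the S-phase members was 5.31% of regression cells and 9.60% of baseline cells. Over the G2/M members it was 2.65% of regression cells and 3.20% of baseline cells. The difference between these lists was not tested. Ccnd1 was the only member whose intervals in regression and baseline did not overlap. The share of all genes whose intervals do not overlap was not determined, so this count has no background beside it.

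Pcna, the sliding clamp that holds DNA polymerase on its template, was the S-phase member at RPKM 10 in most cells, while at RPKM 1 Tyms was in more. It ran from 0 to 782 RPKM in regression cells (median 0) and from 0 to 1426 RPKM in baseline cells (median 0.626), and the groups overlapped. It passed RPKM 10 in 38 of 113 regression cells (33.6%, 25.0 to 43.1%) and in 51 of 125 baseline cells (40.8%, 32.1 to 49.9%), with a mean log2 level of 2.55 ± 3.32 in regression and 2.96 ± 3.42 at baseline (SD over cells). The stretches gave 8 of 20, 5 of 18 and 25 of 75 regression cells, against 28 of 69 and 23 of 56 baseline cells, a narrow range. With Pcna itself not counted, it was at RPKM 10 in 8 of 14 regression cells (57.1%) and 20 of 32 baseline cells (62.5%) with at least 4 of the other members, and also in 30 of 99 regression cells (30.3%) and 31 of 93 baseline cells (33.3%) with fewer.

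The other S-phase gene listed often was Tyms, thymidylate synthase, which makes the thymidine nucleotide. It reached RPKM 10 in 18 of 113 regression cells (15.9%, 9.72 to 24.0%) and 32 of 125 baseline cells (25.6%, 18.2 to 34.2%), up to 376 RPKM in regression and 320 RPKM at baseline. The stretches gave 5 of 20, 2 of 18 and 11 of 75 regression cells, against 17 of 69 and 15 of 56 baseline cells. The mean log2 level of Tyms was lower in regression in all 6 pairings of a regression with a baseline stretch, by differences of -0.65 to -0.07.

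The ribonucleotide reductase subunits, which make deoxyribonucleotides, were both lower in regression. Rrm1, the large subunit, was at RPKM 10 in 6 of 113 regression cells (5.31%, 1.97 to 11.2%) and 17 of 125 baseline cells (13.6%, 8.13 to 20.9%), with medians of 0 and highest values of 407 RPKM in regression and 886 RPKM at baseline. Its mean log2 level was 0.42 ± 1.60 in regression and 1.02 ± 2.17 at baseline (SD), a difference of -0.60, with -1.06 to -0.44 over the 6 pairings of stretches. By stretch it was at RPKM 10 in 1 of 20, 0 of 18 and 5 of 75 regression cells, against 10 of 69 and 7 of 56 baseline cells, so every regression stretch lay below both baseline stretches. The intervals of these regression and baseline stretches overlapped. Rrm2, the S-phase subunit, was listed in 4 of 113 regression cells (3.54%) and 10 of 125 baseline cells (8.00%), and in regression all 4 were in cells 168 to 244.

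The 6 subunits of the MCM helicase were each lower in regression on the log2(RPKM + 1) scale, by -0.55 to -0.06, but Mcm2 was at 0.01 with a pseudocount of 10, and as the log2 ratio of mean RPKM Mcm2 was at 1.46 and Mcm7 at 0.03. Mcm4 showed the largest difference: it was at RPKM 10 in 9 of 113 regression cells (7.96%, 3.71 to 14.6%) and 18 of 125 baseline cells (14.4%, 8.76 to 21.8%), up to 154 RPKM in regression and 550 RPKM at baseline. That difference rested on 1 baseline stretch, since 14 of 69 cells in cells 21 to 92 and 4 of 56 in cells 112 to 167 listed Mcm4, against 2 of 20, 2 of 18 and 5 of 75 regression cells. Without cells 21 to 92 the log2 difference of Mcm4 was -0.01, and without cells 112 to 167 it was -0.99.

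Mcm3 was at RPKM 10 in 11 of 113 regression cells (9.73%) and 17 of 125 baseline cells (13.6%), and its mean log2 level was lower in all 6 pairings. Its stretches gave 1 of 20, 1 of 18 and 9 of 75 regression cells, against 10 of 69 and 7 of 56 baseline cells, with every regression share below both baseline shares but overlapping intervals. Mcm6 was there in 9 regression cells (7.96%) and 12 baseline cells (9.60%), Mcm5 in 6 regression cells (5.31%) and 10 baseline cells (8.00%), and Mcm7 in 4 regression cells (3.54%) and 10 baseline cells (8.00%). Mcm2 was closest, in 5 regression cells (4.42%, 1.45 to 10.0%) and 7 baseline cells (5.60%, 2.28 to 11.2%). Regression cells with Mcm2, Mcm5, Mcm6 or Mcm7 at RPKM 10 were all in cells 168 to 244, where the counts were 5, 6, 9 and 4 of 75. Cells 1 to 20 and 93 to 111 had 0 of 20 and 0 of 18 for each of these 4 genes, for which the exact intervals reach 16.8% and 18.5% (3 cells would be 15.0% and 16.7%). In the baseline stretches, cells 21 to 92 and 112 to 167, Mcm2 was listed in 6 of 69 and 1 of 56 cells and Mcm6 in 5 of 69 and 7 of 56, so their order differed between stretches. Mcm5 and Mcm7 were each listed in 7 of 69 and 3 of 56 baseline cells.

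The remaining S-phase members have regulatory or salvage roles. Uhrf1, which helps copy DNA methylation to new strands, was at RPKM 10 in 4 of 113 regression cells (3.54%, 0.973 to 8.82%) and 12 of 125 baseline cells (9.60%, 5.06 to 16.2%). With Uhrf1 itself left out of the count, it was at RPKM 10 in 3 of 18 regression cells and 12 of 37 baseline cells with at least 4 of the other 37 members, against 1 of 95 regression cells and 0 of 88 baseline cells with fewer. Gmnn, geminin, an inhibitor of origin licensing, was listed in 12 regression cells (10.6%) and 15 baseline cells (12.0%), with 2 of 20, 0 of 18 and 10 of 75 by regression stretch and 8 of 69 and 7 of 56 by baseline stretch. Tk1, the thymidine kinase of S phase, was the exception in direction, in 6 regression cells (5.31%, 1.97 to 11.2%) and 5 baseline cells (4.00%, 1.31 to 9.09%), with a log2 difference of 0.08. By stretch Tk1 was in 1 of 20, 1 of 18 and 4 of 75 regression cells, against 3 of 69 and 2 of 56 baseline cells, so the shares were near each other. Ccne1, cyclin E1, was at RPKM 10 in 0 of 113 regression cells, for which the exact interval reaches 3.21% (3 cells would be 2.65%), and in 1 of 125 baseline cells.

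The 22 G2/M members were divided in direction and mostly rare. On the log2 scale 13 were lower and 9 higher in regression, with a median difference of -0.036 and a range of -0.43 to 0.19. Members with a cell at RPKM 10 numbered 5, 3 and 20 of 22 in regression cells 1 to 20, 93 to 111 and 168 to 244, against 18 and 20 of 22 in baseline cells 21 to 92 and 112 to 167. Cells 1 to 20 and 93 to 111 hold the fewest cells, 20 and 18.

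Mki67, the gene of the proliferation antigen Ki-67, was at RPKM 10 in 7 of 113 regression cells (6.19%, 2.53 to 12.3%) and 9 of 125 baseline cells (7.20%, 3.35 to 13.2%). The highest values were 60.0 RPKM in regression and 118 RPKM at baseline, and both medians were 0. The stretches gave 2 of 20, 0 of 18 and 5 of 75 regression cells, against 4 of 69 and 5 of 56 baseline cells, so neither group stood apart. The mean log2 level was 0.39 ± 1.21 in regression and 0.58 ± 1.56 at baseline (SD).

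Top2a, the topoisomerase that untangles sister chromosomes, had the largest difference among the G2/M members, at -0.43. It was at RPKM 10 in 3 of 113 regression cells (2.65%, 0.551 to 7.56%) and 8 of 125 baseline cells (6.40%, 2.80 to 12.2%), up to 77.3 RPKM in regression and 260 RPKM at baseline. The 3 regression cells were in cells 168 to 244, and the baseline cells were 4 of 69 and 4 of 56 by stretch. Top2a was lower in all 6 pairings, by -0.74 to -0.25. With Top2a itself not counted, it was at RPKM 10 in 3 of 19 regression cells and 4 of 33 baseline cells with at least 4 of the other members, against 0 of 94 regression cells and 4 of 92 baseline cells with fewer.

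Cenpa, the histone variant of centromeres, had a log2 difference of 0.19, higher in regression, but its log2 ratio of mean RPKM was -0.43. It was at RPKM 10 in 19 of 113 regression cells (16.8%, 10.4 to 25.0%) and 15 of 125 baseline cells (12.0%, 6.87 to 19.0%). The stretches overlapped, with 4 of 20, 1 of 18 and 14 of 75 regression cells, against 5 of 69 and 10 of 56 baseline cells, and 3 of 6 pairings were lower in regression. Birc5, which serves the chromosomal passenger complex, was listed in 6 regression cells (5.31%) and 5 baseline cells (4.00%), with highest values of 810 RPKM in regression and 73.3 RPKM at baseline. Its 6 regression cells were all in cells 168 to 244, against 3 of 69 and 2 of 56 baseline cells.

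Hmgb2, a chromatin protein abundant in dividing cells but not limited to them, was the G2/M member listed most often. It was at RPKM 10 in 40 of 113 regression cells (35.4%, 26.6 to 45.0%) and 58 of 125 baseline cells (46.4%, 37.4 to 55.5%), with medians of 2.71 RPKM in regression and 6.55 RPKM at baseline. The stretches gave 5 of 20, 7 of 18 and 28 of 75 regression cells, against 29 of 69 and 29 of 56 baseline cells. Its log2 difference was -0.27 and depended on the stretch, at -0.12 without cells 1 to 20, -0.73 without cells 168 to 244, -0.61 without cells 21 to 92 and -0.00 without cells 112 to 167. Its ratio of mean RPKM values, on the log2 scale, was 0.02, the other direction. With Hmgb2 itself not counted, it also passed RPKM 10 in 32.0% of the regression cells and 39.2% of the baseline cells with fewer than 4 of the other members.

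The mitotic kinases, cyclins and spindle genes were at RPKM 10 in under 5% of the cells of either group. Cdk1, the mitotic kinase, was listed in 4 regression cells and 2 baseline cells, and its partners Ccnb1 and Ccnb2 in 3 and 5 cells of each group and Ccna2 in 4 regression cells and 3 baseline cells. Ccnb1, Ccnb2, Tpx2, Prc1, Kif11 and Nusap1, cyclins and spindle proteins, were each at RPKM 10 in 0 of 94 regression cells and 0 of 88 baseline cells with fewer than 4 of the other members, the gene itself not counted. Plk1, a kinase of mitotic entry, was listed in 1 regression cell, cell 184 at 16.3 RPKM, and in 0 of 125 baseline cells, for which the exact interval reaches 2.91% (3 cells would be 2.40%). Bub1, a spindle checkpoint kinase, and Aurka, a centrosome kinase, were listed in 0 regression cells each, and in 3 and 2 baseline cells. The intervals of regression and baseline overlapped for each of these genes.

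Stmn1, stathmin, which destabilises microtubules and is abundant in dividing cells, reached the highest values of all members. It ran up to 1735 RPKM in regression and 1986.5 RPKM at baseline, with medians of 0 in both. It was at RPKM 10 in 19 of 113 regression cells (16.8%, 10.4 to 25.0%) and 28 of 125 baseline cells (22.4%, 15.4 to 30.7%). The regression stretches differed widely, with 1 of 20, 1 of 18 and 17 of 75 cells, against 14 of 69 and 14 of 56 baseline cells. Leaving out cells 168 to 244 took the log2 difference of -0.58 to -1.55, whereas it was -0.35 when cells 1 to 20 and -0.36 when cells 112 to 167 were left out. Without the cells that have at least 4 members it was 0.15, but Stmn1 itself helped to choose those cells, so nothing is read from that sign.

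Ccnd1, cyclin D1, a G1 cyclin that activates Cdk4 and Cdk6 on growth factor signals, had by far the largest difference of the 38 genes. It ran from 0 to 456 RPKM in regression cells (median 0) and from 0 to 470 RPKM in baseline cells (median 0.971). Few regression cells were high: 10 of 113 passed RPKM 10 (8.85%, 4.33 to 15.7%), against 52 of 125 baseline cells (41.6%, 32.9 to 50.8%). The mean log2 level was 0.79 ± 1.90 in regression and 2.72 ± 3.06 at baseline (SD), a difference of -1.93, and the ranges of single cells overlapped. By stretch, Ccnd1 was at RPKM 10 in 1 of 20, 0 of 18 and 9 of 75 regression cells, against 25 of 69 and 27 of 56 baseline cells. Every regression stretch lay below both baseline stretches, and the 6 pairings differed by -2.85 to -1.37.

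**Figure D5:**
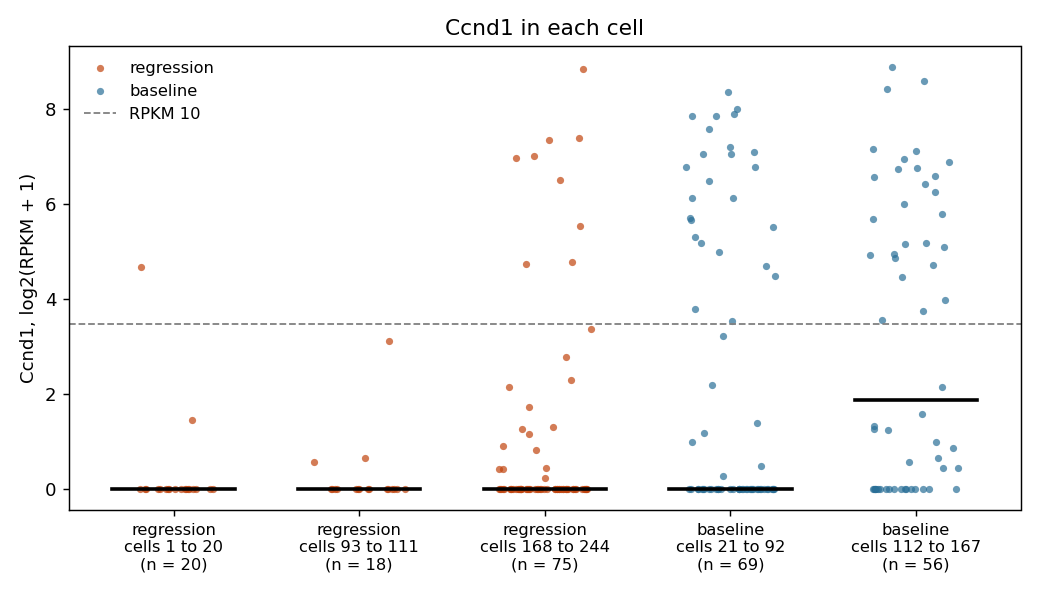
Level of Ccnd1 in each cell (log2(RPKM + 1)) by stretch, regression left and baseline right; points are cells, black bars are medians and the dashed line is RPKM 10. Points above the line number 1 of 20, 0 of 18 and 9 of 75 in the regression stretches and 25 of 69 and 27 of 56 in the baseline stretches.

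Ccnd1 was lower in regression also in cells that listed few other members. With Ccnd1 itself not counted, it was at RPKM 10 in 5 of 96 regression cells (5.21%, 1.71 to 11.7%) and 34 of 94 baseline cells (36.2%, 26.5 to 46.7%) with fewer than 4 of the other members. With none of the other members it was listed in 1 of 22 regression cells (4.55%) and 2 of 12 baseline cells (16.7%). With 1 to 3 other members it was listed in 4 of 74 regression cells (5.41%, 1.49 to 13.3%) and 32 of 82 baseline cells (39.0%, 28.4 to 50.4%). With 4 or more other members the counts were 5 of 17 regression cells (29.4%, 10.3 to 56.0%) and 18 of 31 baseline cells (58.1%, 39.1 to 75.5%). In both groups Ccnd1 was thus most frequent in cells with 4 or more other members, and in each class the share was lower in regression. The regression shares with none and with 1 to 3 other members were close. With none, the intervals of 0.115 to 22.8% in regression and 2.09 to 48.4% at baseline overlapped, as they did with 4 or more. Cells with more members also had more genes detected, and the part of detection in these shares was not tested.

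Exons of 11 members overlap those of another gene in GENCODE vM21, among them Ccnd1 with LTO1, Mcm7 with Ap4m1 and Cops6, and Ube2c with Tnnc2, each on the opposite strand. The libraries' counting is not stated to use strand, so reads of such partners cannot be told apart. Ccnb1, Ccnb2, Pcna and Tyms have named pseudogenes, with which the counting could split reads.

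Further replication genes outside the 38 were mostly lower in regression as well. Of 30 further replication genes that passed the filter, 26 were lower in regression, against 52.8% of all genes that passed, with a median difference of -0.16 and none past 0.5. The largest differences were those of Rfc2, a clamp loader subunit, at -0.45, and of Usp1, a deubiquitinase of DNA repair, at 0.39. Rfc2 was at RPKM 10 in 15.9% of regression cells and 19.2% of baseline cells.

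Of 30 further mitosis genes that passed, 20 were lower in regression, with a median of -0.097; over all genes that passed, 52.8% were lower. Smc4, a condensin subunit, at -0.81, and Racgap1, a cytokinesis regulator, at -0.53, were lower by at least 0.5, which is 2 of 30 against 10.7% of all genes, and no gene of this list was higher by as much. Smc4 was at RPKM 10 in 20.4% of regression cells and 37.6% of baseline cells, and Racgap1 in 2.65% of regression cells and 12.8% of baseline cells.

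Among drivers of G1, 6 of the 9 that passed were lower, against 52.8% of all genes that passed. Cdk2, the kinase partner of cyclin E, differed by 0.51 and was at RPKM 10 in 19.5% of regression cells and 8.80% of baseline cells. Myc, a growth-promoting transcription factor, differed by -0.39, at 13.3% of regression cells and 19.2% of baseline cells. Of the other D-type cyclins, Ccnd3 was at RPKM 10 in 19.5% of regression cells and 21.6% of baseline cells, a smaller gap than that of Ccnd1.

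The inhibitors of the cycle were not uniformly higher where the cycle genes were lower. Of 14 that passed, 6 were lower and 8 higher in regression, while 52.8% of all genes that passed were lower. By at least 0.5, 3 were lower and 2 higher, against 10.7% and 8.74% of all genes that passed. Btg2, an antiproliferative gene, differed by -2.77 and was at RPKM 10 in 49.6% of regression cells and 79.2% of baseline cells. Gadd45b, a stress-induced growth arrest gene, differed by -1.58, at 17.7% of regression cells and 39.2% of baseline cells, and Cdkn1a, the p21 inhibitor, by -1.40, at 53.1% of regression cells and 65.6% of baseline cells. Ccng1, cyclin G1, at 0.71 and Btg1 at 0.54 were higher in regression.

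The cells with at least 4 members also listed more of the genes that had not chosen them. In regression, 14 of 38 further replication genes and 29 of 49 further mitosis genes were higher by at least 0.5 in these 19 cells than in the other 94, against 29.6% of all other genes. At baseline, 23 of 36 replication genes and 23 of 44 mitosis genes were higher in the 37 cells than in the other 88, against 24.6% of all other genes. The replication genes in regression were thus near the background, and the other 3 counts above it. These cells also had more genes detected, as given above, and the median over all genes was 0.22 higher in regression and 0.20 higher at baseline. The part of detection in these counts was not tested.

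A regression cell with at least 4 members listed a median of 3 of 39 further replication genes and 6 of 50 further mitosis genes at RPKM 10, against 1 and 4 in the other regression cells. The baseline medians were 3 and 7, against 1 and 5 in the other baseline cells. In the cells with at least 10 members the medians were 4 replication and 18 mitosis genes in 7 regression cells, against 11.5 replication and 13.5 mitosis genes in 8 baseline cells. The number of S-phase members followed that of the further replication genes at r of 0.75 over 113 regression cells and 0.80 over 125 baseline cells, and the G2/M members followed the further mitosis genes at 0.83 in regression and 0.74 at baseline, within libraries that share their depth.

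The further mitosis genes listed in most of the 56 cells with at least 4 members were also frequent in the other cells. Tubb5 and Tuba1b, tubulins, and H2afz, a histone variant, were at RPKM 10 in 54, 50 and 52 of these cells, but Tubb5 was also there in 81.9% of the other regression cells and 87.5% of the other baseline cells. Some rarer mitosis genes were listed only in cells with at least 4 members. Among them, Tacc3 was in 26.3% of such regression cells and 16.2% of such baseline cells, and Hmmr in 21.1% and 13.5%. Of the replication genes, Slbp, which binds histone mRNA, was listed in 21 of the 56, Rfc2 in 17 and Tipin, a replication fork protein, in 16. Tipin was at RPKM 10 in 31.6% of regression cells with at least 4 members, against 4.26% of the others, and in 27.0% of such baseline cells, against 6.82% of the others. Cdk4, the kinase that Ccnd1 activates, was listed in 19 of the 56 cells, and Ccnd3 and Myc in 11 each. Of the inhibitors, Btg1 was listed in all 56, Cdkn1b, the p27 inhibitor, in 45 and Btg2 in 42.

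Nearly all cells with at least 4 members listed macrophage markers, and so did nearly all other cells. At least 3 of 9 macrophage markers were at RPKM 1 or more in 19 of 19 regression and 36 of 37 baseline cells with at least 4 members, against 93 of 94 other regression cells and 88 of 88 other baseline cells. The exception at baseline was cell 42, with 2 of the markers and 11 members. At least 3 of 6 classical monocyte markers were listed in 3 of 19 regression cells with at least 4 members, against 28 of 94 other regression cells, and in 3 of 37 such baseline cells, against 18 of 88 others. At least 3 dendritic cell markers were listed in 0 of 19 regression cells and 4 of 37 baseline cells with at least 4 members, and in 0 of 94 other regression cells and 3 of 88 other baseline cells. At least 3 neutrophil markers were listed in 1 of the 19 regression cells, cell 210, against 4 of 94 other regression cells. At baseline they were listed in 0 of the 37 cells, against 2 of 88 others. The summed level of the 6 monocyte markers had a median of 345 RPKM (52.2 to 1211) in regression cells with at least 4 members, against 387 RPKM (0 to 15386) in the other regression cells. Summed neutrophil markers had a median of 3.10 RPKM in the 19 regression cells and 0.698 RPKM in the 37 baseline cells, and summed dendritic cell markers 0.262 RPKM in the regression cells and 0.782 RPKM in the baseline cells. The highest summed neutrophil level was 2742 RPKM in the 19 regression cells and 262 RPKM in the 37 baseline cells, and the highest summed dendritic cell level 444 RPKM in the regression cells and 370 RPKM in the baseline cells. Of the 8 neutrophil markers, Ly6g, Retnlg, Mpo, Elane and Camp were under RPKM 1 in all 56 cells, but also in the other regression cells, whose summed neutrophil level reached 29852 RPKM. No cell with at least 4 members had 3 markers of T, B or NK cells, smooth muscle, endothelium, fibroblasts or red cells. The part of these cells in the results was not tested.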

How the data were processed

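The libraries, with SMARTer cDNA and Nextera XT tagging of cells captured on a C1 chip, were made per the labels' protocols, whose text speaks of islet cells where the other labels say macrophages. The authors deposited 1 table of RPKM values, scaled by them for transcript length and library size. The mm10 build, CASAVA 1.8.2 and FastQC are named per the submitters' processing notes. The sources used here name no aligner, annotation or strand setting. Of 244 libraries, 3 near-copy baseline pairs (correlation 0.992 to 0.997, against at most 0.654 elsewhere) were averaged, and 3 regression cells, each below 1000 genes at RPKM 1, were left out.

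Values were compared as log2(RPKM + 1), on which low genes are understated. RPKM values are not counts and each group is 1 sample, so no count model and no test was run. A call was a difference of at least 0.5 among genes at RPKM 1 in 5% or more of either group's cells. Depth was estimated from the step between low values of single-transcript genes, and is given for 139 libraries in which separate gene sets gave the same step within 10%. Libraries carry no molecular identifiers.

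The members, the phase lists and the other gene lists (248 symbols, 246 in the table) were chosen with earlier results of these data known. Counts of cells in each group are given for members at RPKM 10 in 5% or more of either group's cells. Intervals, ranges, means and stretch counts are given for only some of these members. Of each other list the text names the 2 genes with the largest differences and the 3 listed in most cells with at least 4 members. Cdkn1a, Ccng1, Btg1, Ccnd3, Tacc3 and Hmmr, the individual cells, and the macrophage genes beyond that rule were chosen after their values were seen. Promoters and motifs were read from RefSeq (GRCm38.p6), overlaps and transcript lengths from GENCODE vM21. Scripts ran in Python 3.11.15 with pandas 2.3.3, NumPy 2.4.6, SciPy 1.17.1 and Matplotlib 3.10.9, and were tested on simulated data.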

Additional observations from a re-analysis of the deposited data

How the results depend on the processing

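The share of cells with at least 4 members was lower in regression under each of the thresholds tried, but its size moved. At RPKM 1 in place of 10 it was 38.1% in regression and 55.2% at baseline, and at RPKM 30 it was 7.96% in regression and 18.4% at baseline. With at least 3 members it was 29.2% in regression and 48.0% at baseline, with at least 6 members 7.08% in regression and 13.6% at baseline (a difference of -6.52 points), and with at least 10 members 6.19% in regression and 6.40% at baseline (-0.205 points), where S-leaning cells were 42.9% in regression and 87.5% at baseline. Without Stmn1, Ccnd1 and Hmgb2 it was 10.6% in regression and 16.0% at baseline (-5.38 points, against -12.8 with all members). In cells with at least 3000 genes it was 35.5% in regression and 52.9% at baseline, and S-leaning cells were 63.6% in regression and 88.9% at baseline. Without Ccnd1 alone it was 15.0% in regression and 24.8% at baseline. Without cells 168 to 244 the regression share was 7.89% (-21.7 points). The median difference of the members, -0.18, was -0.32 with a pseudocount of 0.1, -0.082 with 10, -0.12 with no filter, -0.48 with a filter at 25% of cells (5 of 5 members lower), -0.47 as the log2 ratio of mean RPKM, -0.29 without cells 168 to 244 and 0.0017 in cells with at least 3000 genes, where its sign turned. With the filter at 25% of cells, 53.3% of all genes that passed were lower. Without the cells that have at least 4 members, 9 of 15 members were lower, against 50.2% of all genes that passed. Stmn1 differed there by 0.15, the reverse of its main value, in cells that Stmn1 helped to choose. Mcm4, Rrm1 and Ccnd1 kept their sign in all 15 settings, but with a pseudocount of 10 only 1 of the 4 members called, Ccnd1, was still past 0.5. Stmn1 was short of it without cells 1 to 20, 93 to 111 or 112 to 167 and in cells with at least 2000 genes, Mcm4 without cells 21 to 92 or 168 to 244, and Rrm1 and Stmn1 without the cells that have at least 4 members. The limits of 10 members and of 3000 genes and the share without Ccnd1 alone were added after seeing the data; the cause of these shifts was not tested. No paired analysis was possible because each group is 1 sample with no numbers shared between groups. The number of cells limits the rare genes: for 0 of 113 regression cells the exact interval reaches 3.21%, and for 0 of 125 baseline cells 2.91%.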

Other observations

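Macrophage genes that differed between the groups were compared between cells with at least 4 cell cycle members and the others. Arg1, arginase, was at RPKM 10 in 78.9% of the 19 regression cells with at least 4 members and 78.7% of the other regression cells, against 2.70% of the 37 baseline cells with at least 4 members and 0 of the other baseline cells. Apoe was there in 100% of the 19 regression cells and 95.7% of the other regression cells, against 5.41% of the 37 baseline cells and 2.27% of the other baseline cells. Saa3, an acute phase gene, was at RPKM 10 in 36.8% of the 19 regression cells, against 46.8% of the other regression cells. Abcg1, a cholesterol exporter that was lower in regression, was there in 73.7% of the 19 regression cells, against 40.4% of the other regression cells, and in 89.2% of the 37 baseline cells, against 85.2% of the others. H2-Aa, an MHC class II gene also lower in regression, was there in 68.4% of the 19 regression cells, against 48.9% of the other regression cells, and in 81.1% of the 37 baseline cells, against 83.0% of the others. Csf1r, the receptor of the macrophage growth factor CSF-1, was at RPKM 10 in 100% of the 19 regression cells and 86.5% of the 37 baseline cells, against 89.4% of the other regression cells and 89.8% of the other baseline cells.

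Some macrophage genes differed in share between cells with at least 4 members and the others, in numbers too small for more than a description. Lyve1, a marker of resident arterial macrophages, was listed in 0 of the 19 regression cells, against 8.51% of the other regression cells, and in 18.9% of the 37 baseline cells, against 14.8% of the others. Mrc1, the mannose receptor, was listed in 89.5% of the 19 regression cells, against 60.6% of the others, and in 62.2% of the 37 baseline cells, against 72.7% of the others. Ccr2, a chemokine receptor of recruited monocytes, was listed in 94.7% of the 19 regression cells, against 83.0% of the others, and in 48.6% of the 37 baseline cells, against 60.2% of the others. Cd9, a tetraspanin, was listed in 78.9% of the 19 regression cells, against 48.9% of the others, and in 89.2% of the 37 baseline cells, against 78.4% of the others. Cells with at least 4 members had more genes detected in both groups, and the part of detection in these shares was not tested. Of the genes listed in most of these 56 cells, Ptprc, the CD45 gene of the sort, was at RPKM 10 in 52, Csf1r in 51 and Cd74, which chaperones MHC class II, in 50.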
